A study of Mus musculus with 4 samples.

Results

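*Uhmk1* and 9 genes for RNA-binding proteins of neuronal mRNA transport were followed in T1–T4 sympathetic ganglia (SG) of cold-exposed mice. The 10 genes, *Uhmk1*, *Stau1*, *Stau2*, *Fmr1*, *Hnrnpa2b1*, *Pura*, *Purb*, *Elavl4*, *Cpeb1* and *Khsrp*, were chosen by name for RNA granule transport and local translation. They were matched by symbol to the Entrez identifiers of the deposited tables, which listed 17667 genes in at least 1 library and 15275 in all 4. All 10 had values in all 4 libraries and all 10 passed the low-count filter of the test. *Uhmk1* was named by the study from these same libraries, so the direction and size of its differences here are not independent evidence.

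There were 4 libraries of C57BL/6 mice aged 12 weeks, each a pool of ganglia from 6 mice after 1 day at 5 °C. They were WT 1, WT 2, TRKC+/- (1 intact allele of *Ntrk3*, the receptor for neurotrophin-3, in all cells) and AdNTF3-Tg (a neurotrophin-3 transgene driven by the adiponectin promoter, which is active in adipocytes, on otherwise intact alleles). The mutants thus had 1 pooled library each, and all groups shared the cold exposure. The labels do not say which WT library belongs to which mutant, while the names of the deposited tables set WT 1 beside TRKC+/- and WT 2 beside AdNTF3-Tg. Each mutant library was therefore compared with both WT libraries.

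Developing and mature neurons send selected mRNAs into their axons packed with proteins in RNA granules, which motor proteins carry along microtubules. Many granule proteins bind the 3′ untranslated region of their cargo and hold it silent until local signals release it for translation. UHMK1 (also called KIS) is a serine/threonine kinase with a U2AF homology motif that phosphorylates splicing factors and stathmin and is found in neuronal RNA granules. Sympathetic neurons depend on neurotrophins made by the tissues they innervate.

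The libraries held 8665955 (WT 1), 8894985 (TRKC+/-), 8847743 (WT 2) and 8806054 (AdNTF3-Tg) reads assigned to genes. The summed level of 14 sympathetic neuron markers lay between 10780 and 11460 FPKM (fragments per kilobase, reads scaled to transcript length and to library size), and 0 of the 14 differed by 0.5 or more on the log2 scale between any pair of libraries. Other tissue differed more: 9 skeletal muscle markers summed to 102.2 FPKM in WT 1, 47.2 in TRKC+/-, 3.37 in WT 2 and 35.7 in AdNTF3-Tg, and 6 brown adipocyte markers summed to 204.1 FPKM in TRKC+/- and 282.2 to 378.7 in the other libraries. Markers of satellite glia and Schwann cells (9 listed) summed to 635.1 FPKM in WT 2 and 754.8 to 822.6 elsewhere, and 4 listed blood markers to 65.2 FPKM in WT 2 and 88.0 to 172.3 elsewhere. Immune markers (7) summed to 110.8 to 155.7 FPKM and endothelial markers (5) to 26.1 to 30.8. In pooled tissue, fewer cells of a type and less RNA per cell cannot be told apart. *Ntrk3* did not check the TRKC+/- label: it stood at 2.45 (WT 1), 2.72 (TRKC+/-), 2.52 (WT 2) and 2.32 (AdNTF3-Tg) FPKM, from 76 to 91 reads. The study reported lower expression of this gene (*Trkc*) in sympathetic ganglia of TRKC+/- mice than in WT littermates. Since these few reads did not show it, the mutant is called the library labelled TRKC+/-. *Ntf3* was listed in that library alone, with 2 reads. The AdNTF3-Tg pool held reads of adipocyte genes, 71 of *Adipoq* among them, and whether it should show the transgene was not tested.

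*Uhmk1* (Entrez 16589) is transcribed from the minus strand of chr1:172123551-172145528 (mouse NCBIM37, GENCODE). *Fmr1* (Entrez 14265), the gene for the translational repressor FMRP that is lost in fragile X syndrome, is on the plus strand of chrX:65931716-65971138. *Purb* (Entrez 19291), for a single-stranded nucleic acid binding protein found on kinesin-borne granules, is on the minus strand of chromosome 11, where this annotation splits it into the entries chr11:6367609-6369141 and chr11:6374795-6375920. These 3 members had the largest ratio of highest to lowest level over the libraries (1.8, 1.66 and 1.26), so the 250 bases before their most upstream RefSeq start (GRCm38.p6) are shown, 5′ to 3′ on the strand of the gene. Capitals mark matches on either strand to the cAMP response element (CRE) TGACGTCA, the E-box CACGTG, the GC box GGGCGG or its reverse complement CCGCCC, and the CCAAT box CCAAT or its reverse complement ATTGG.
Uhmk1: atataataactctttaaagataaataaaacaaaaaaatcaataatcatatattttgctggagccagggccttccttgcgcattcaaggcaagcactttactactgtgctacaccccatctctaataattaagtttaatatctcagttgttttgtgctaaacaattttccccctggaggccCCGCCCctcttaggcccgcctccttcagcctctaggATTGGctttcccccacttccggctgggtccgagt
Fmr1: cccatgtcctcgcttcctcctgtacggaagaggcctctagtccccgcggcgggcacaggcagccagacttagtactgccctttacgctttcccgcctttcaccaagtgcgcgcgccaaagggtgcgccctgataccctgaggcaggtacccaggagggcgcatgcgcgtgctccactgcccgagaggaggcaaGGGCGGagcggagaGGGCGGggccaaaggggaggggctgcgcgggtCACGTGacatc
Purb: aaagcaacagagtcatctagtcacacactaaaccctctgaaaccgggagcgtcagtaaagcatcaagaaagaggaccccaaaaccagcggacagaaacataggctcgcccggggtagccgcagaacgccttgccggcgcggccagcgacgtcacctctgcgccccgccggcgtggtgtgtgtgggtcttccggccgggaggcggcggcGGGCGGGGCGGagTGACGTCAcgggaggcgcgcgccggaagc

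The *Uhmk1* window, chr1:170215408-170215657 in GRCm38.p6, had 43.6% G+C against a median of 52.4% over all 32851 promoter windows, and held 1 GC box, 70 bases before the start, and 1 CCAAT box, 34 bases before it, both on the opposite strand. It matched NCBIM37 without a change at chr1:172145539-172145788, and *4930500M09Rik*, a gene on the opposite strand, overlaps this stretch and the 5′ end of *Uhmk1* (chr1:172144991-172145687). The *Fmr1* window, chrX:68678291-68678540, was 67.2% G+C with 2 GC boxes and an E-box 11 bases before the start. The *Purb* window, chr11:6476077-6476326, was 66% G+C and held 2 overlapping GC boxes and a CRE 29 bases before the start. A CRE was found in 1.55% of all windows, an E-box in 6.02%, a GC box in 32.7% and a CCAAT box in 33.8%. Of the 8 members with a window in the table, *Purb* alone had a CRE and *Fmr1* alone an E-box, while *Stau1* (1), *Cpeb1* (4) and *Khsrp* (1) also had GC boxes and *Elavl4* had no match to any of the 4 motifs. *Hnrnpa2b1* had a CCAAT box and *Khsrp* had 1 as well. *Stau2* and *Pura* had no entry. These matches describe letters and not bound sites.

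*Uhmk1* was present at a middle level, with a mean of 21.5 FPKM over the libraries, above 74.6% of the genes listed in all 4. It was 27.65 FPKM in WT 1 (478 reads, 95% counting interval 25.2 to 30.2), 15.36 in the library labelled TRKC+/- (271 reads, 13.6 to 17.3), 17.62 in WT 2 (308 reads, 15.7 to 19.7) and 25.36 in AdNTF3-Tg (441 reads, 23.0 to 27.8). WT 1 and AdNTF3-Tg were high and WT 2 and TRKC+/- were low, and the intervals overlapped within each of these pairs but not between them. The WT libraries therefore stood at opposite sides of this gap. In none of the 7 marker lists were the summed levels in WT 1 and AdNTF3-Tg both above those in TRKC+/- and WT 2. A sum can hide single markers. The glial marker *Fabp7* had this order, at 341.7 (WT 1), 286.98 (AdNTF3-Tg), 285.73 (TRKC+/-) and 210.87 FPKM (WT 2). The part of cell composition in the *Uhmk1* values was not tested.

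**Figure D1:**
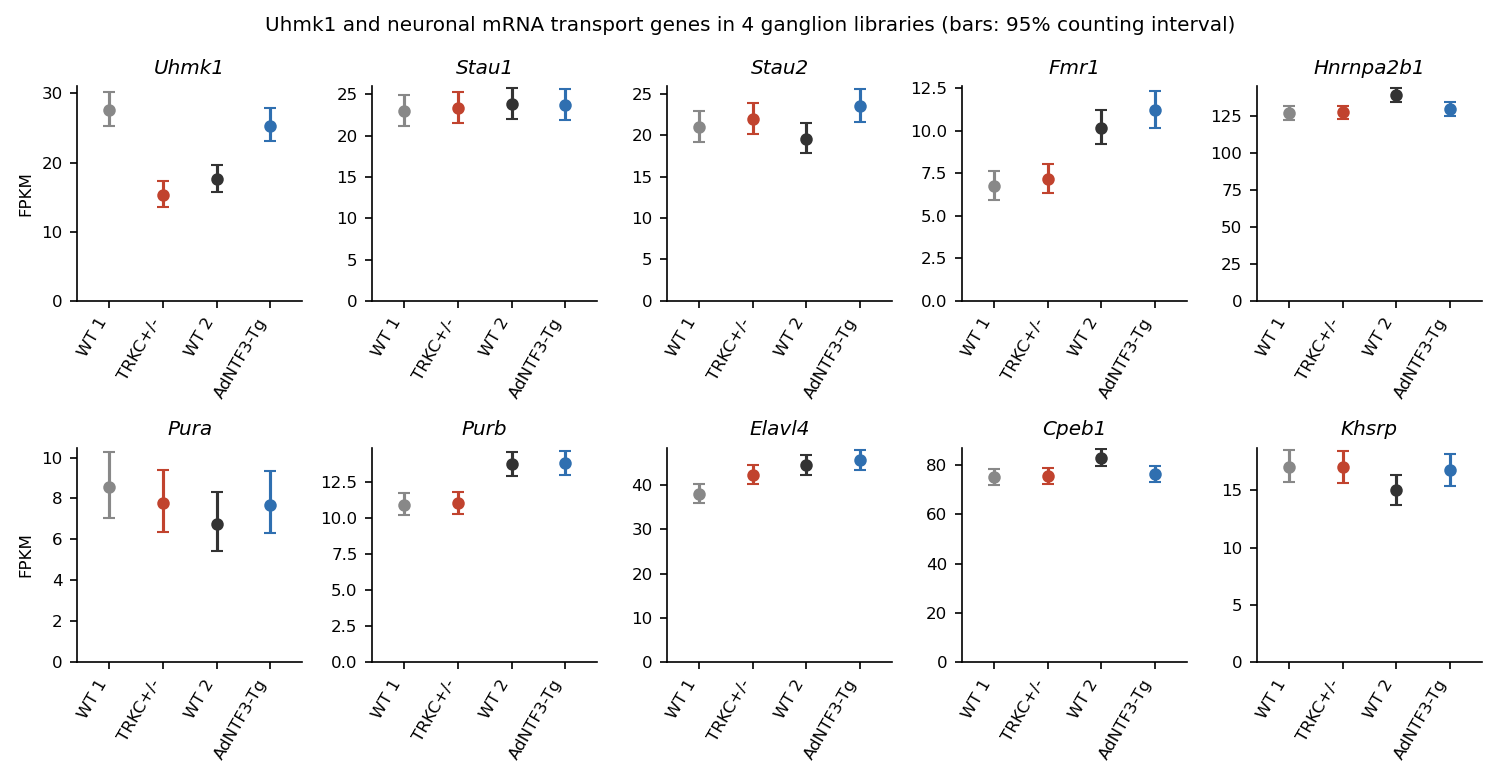
FPKM (y axis, from 0) of the 10 members in the 4 libraries (x axis); points are single pooled libraries and bars are exact Poisson 95% counting intervals, which hold no biological spread. *Uhmk1* is high in WT 1 and AdNTF3-Tg, *Fmr1* and *Purb* are high in WT 2 and AdNTF3-Tg, and *Stau1* is nearly level.

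Against WT 1 the log2 ratio of *Uhmk1* FPKM in the library labelled TRKC+/- was -0.84 (interval of the read ratio -1.08 to -0.64), and against WT 2 it was -0.20 (-0.43 to 0.05). In AdNTF3-Tg it was -0.12 against WT 1 (-0.33 to 0.05) and 0.52 against WT 2 (0.31 to 0.74). WT 1 exceeded WT 2 by 0.65 (0.45 to 0.88), a 1.57-fold difference with no genotype between them. The lower level in TRKC+/- thus passed a cutoff of 0.5 against WT 1 only, and the higher level in AdNTF3-Tg passed it against WT 2 only. These are the pairs that the table names give. In them 202 genes, *Uhmk1* among them, were lower in TRKC+/- and higher in AdNTF3-Tg past the cutoff. With the WT libraries exchanged 168 genes were, and the AdNTF3-Tg ratio of *Uhmk1* turned negative. The ratio of AdNTF3-Tg to TRKC+/-, which needs no WT library, was 0.72 (0.50 to 0.94), or 1.65-fold. It sets 1 pool against 1 pool, so genotype and pool cannot be told apart in it. In TRKC+/- against WT 1, 96.2% of genes had a smaller absolute ratio than *Uhmk1*, and between the WT libraries 91.4% did. The study named *Uhmk1* from these libraries with the same cutoff, so these shares are not independent evidence of an unusual size.

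Over the 10 members, 1 (*Uhmk1*) passed the cutoff in TRKC+/- against WT 1, where 10.7% of all genes did, and 0 passed it against WT 2, where 12.7% did. In AdNTF3-Tg, 1 (*Fmr1*) passed it against WT 1 (13.9% of all genes) and 1 (*Uhmk1*) against WT 2 (13.3%). The WT libraries differed past it in 2 members, *Uhmk1* and *Fmr1*, with 13.4% of genes, and AdNTF3-Tg and TRKC+/- in the same 2, with 13.1%. Past the cutoff against both WT libraries in the same direction stood 0 of the 10 members in TRKC+/- (4.27% of all genes) and 0 of the 10 in AdNTF3-Tg (5.7%). The median log2 ratio of the members was 0.01, -0.10, 0.04 and 0.09 in these 4 comparisons of a mutant with a WT library, and that of all genes was 0.00 in each. Of the values in a mutant that passed the cutoff, the nearest to it was 0.52, for *Uhmk1* in AdNTF3-Tg against WT 2. Of those that did not pass, the nearest was -0.4998, for *Fmr1* in TRKC+/- against WT 2.

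**Figure D2:**
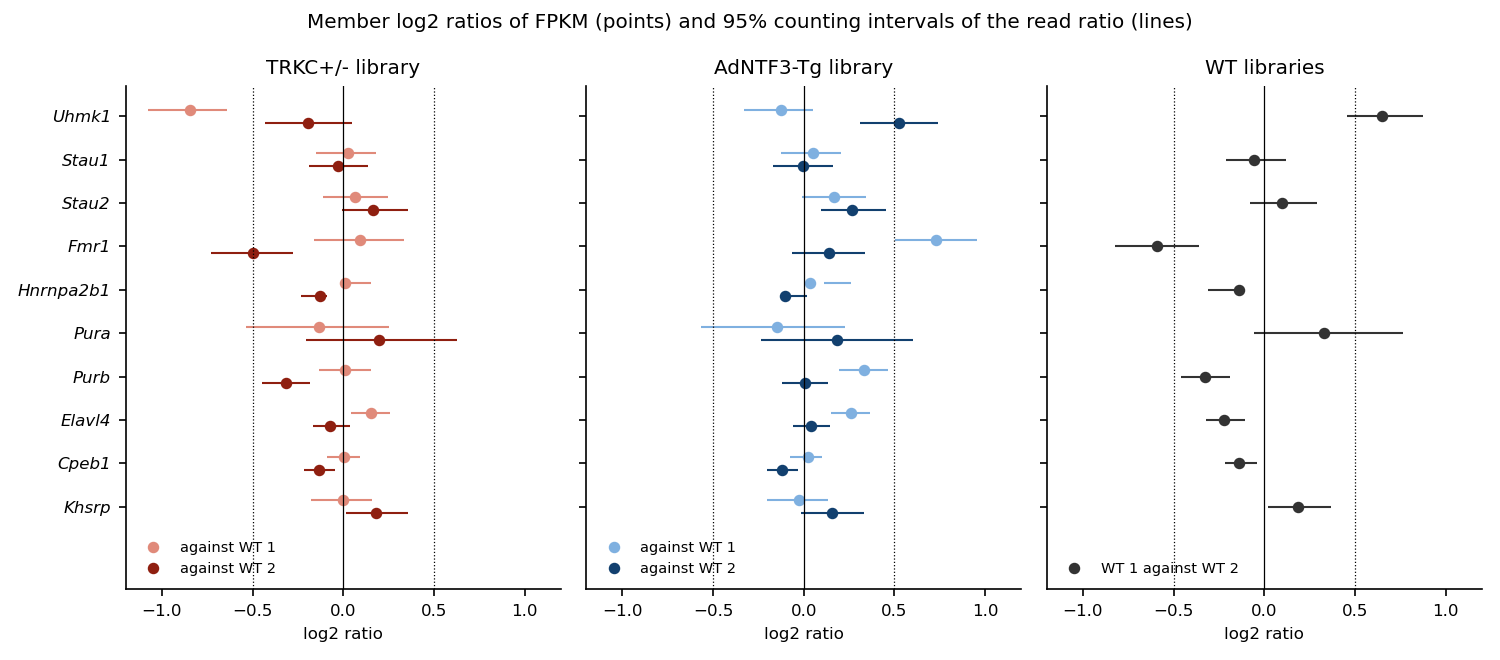
log2 ratios (x axis) of the 10 members (rows) for each mutant library against WT 1 and WT 2 and for WT 1 against WT 2; points are ratios of FPKM, lines are 95% counting intervals of the read ratio, and dotted lines are the cutoff of 0.5. *Uhmk1* and *Fmr1* lie past a dotted line between the WT libraries too, at 0.65 and -0.59. For *Hnrnpa2b1* a point can lie off its line because its estimated transcript length differed between libraries.

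With the 2 WT libraries as replicates and every gene tested together (14156 genes, edgeR quasi-likelihood test, Benjamini-Hochberg adjustment), 0 of the 10 members were called in any of the 3 contrasts. Among all genes the test called 1 in TRKC+/- against WT (0.00706%), 0 in AdNTF3-Tg against WT (0.0%) and 1 in AdNTF3-Tg against TRKC+/- (0.00706%), and at an unadjusted p under 0.05 there were 273, 832 and 663. The single called gene was *Ucp1*, the thermogenic uncoupling protein of brown adipocytes. DESeq2 called 0 members in each contrast as well. The p-values measure the spread between 2 pooled WT libraries, which may be of 2 cohorts, and the lone mutant libraries are assumed to vary likewise.

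In that test *Uhmk1* had a log2 fold change of -0.56 ± 0.25 (SE, 1 library against 2, edgeR adjusted p = 0.999) in TRKC+/- against WT. It was 0.16 ± 0.23 (edgeR adjusted p = 0.905) in AdNTF3-Tg against WT and 0.73 ± 0.28 (edgeR adjusted p = 0.940) in AdNTF3-Tg against TRKC+/-. Without WT 1 the first 2 values were -0.20 and 0.52, and without WT 2 they were -0.85 and -0.12, in each case with no test. The fold change of *Uhmk1* in TRKC+/- was thus negative with either WT library and its size depended on which one was kept, and in AdNTF3-Tg its sign did.

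The reads of *Uhmk1* were counted over 2041 bases, a single transcript model, which is 26.0% of the 7864 bases of its longest GENCODE transcript, of which 6447 bases are 3′ untranslated region. The counted model and that transcript were compared by length only, so which part of the transcript was counted is not known. All *Uhmk1* counts were whole numbers in all 4 libraries, and *4930500M09Rik*, the overlapping gene, was not listed. Of the nearest protein-coding genes on the other side, *Uap1*, an enzyme of hexosamine synthesis, was 36.2, 37.36, 35.93 and 37.09 FPKM in WT 1, TRKC+/-, WT 2 and AdNTF3-Tg, and *Ddr2*, a collagen receptor, was 3.39, 3.06, 3.3 and 3.32. Neither showed the pattern of *Uhmk1*. *Sh2d1b2*, the next gene beyond *4930500M09Rik*, was not listed.

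The 5 genes whose profiles over the 4 libraries lay nearest to that of *Uhmk1*, by Euclidean distance of centred log2(FPKM + 0.1) among 11364 genes with at least 200 reads in all, were *Mib1* (0.11), *Tmem178b* (0.19), *Itgb8* (0.20), *Zkscan14* (0.21) and *Mef2a* (0.21). *Mib1*, a ubiquitin ligase of Notch signaling, was 5.72 FPKM in WT 1, 3.49 in TRKC+/-, 3.79 in WT 2 and 5.69 in AdNTF3-Tg. *Mef2a*, a transcription factor of muscle and neurons, was 10.95, 7.08, 8.21 and 10.26 in the same order. All 5 shared the high values in WT 1 and AdNTF3-Tg by construction of the distance, and their reads ran from 48 to 271 a library. Among the members *Pura* lay nearest, at 0.60, ranked 1086, and *Fmr1* farthest, at 0.92, ranked 10423.

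**Figure D3:**
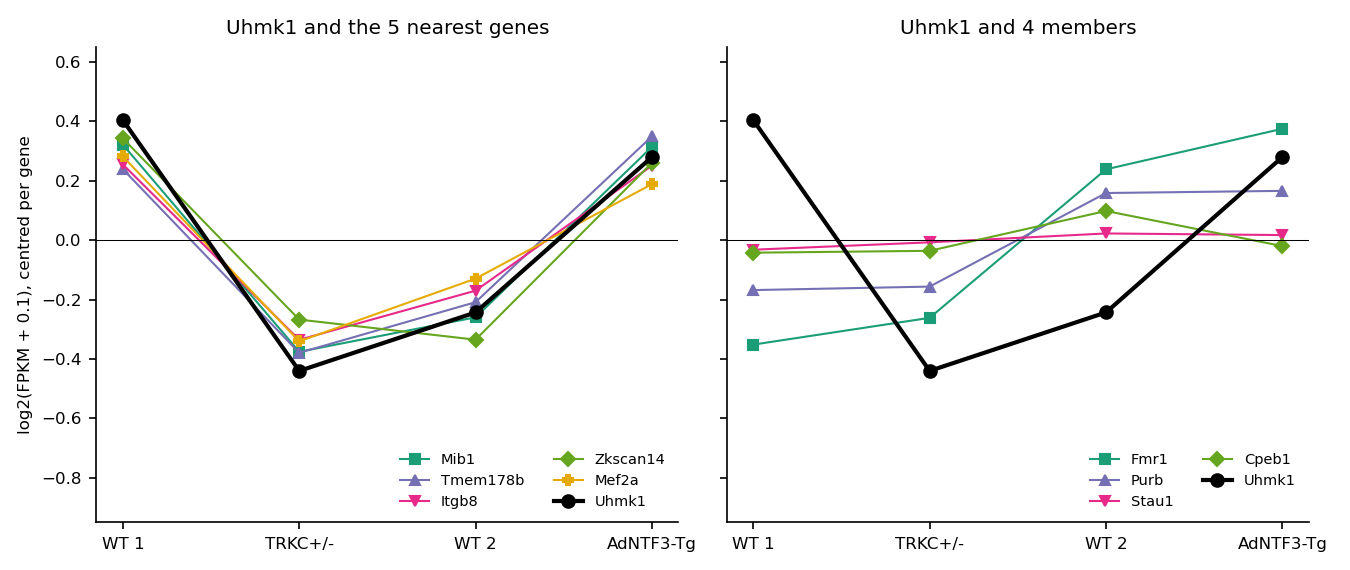
log2(FPKM + 0.1) centred over the 4 libraries (y axis) for *Uhmk1* with the 5 nearest genes (left) and with 4 other members (right); each point is 1 pooled library. The 5 genes follow *Uhmk1*, high in WT 1 and AdNTF3-Tg, while *Fmr1* and *Purb* are high in WT 2 and AdNTF3-Tg.

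*Fmr1* was the other member that differed clearly between libraries. It was 6.73 FPKM in WT 1 (255 reads), 7.17 in TRKC+/- (278), 10.18 in WT 2 (392) and 11.2 in AdNTF3-Tg (429). WT 2 and AdNTF3-Tg were high, WT 1 and TRKC+/- were low, and the counting intervals did not overlap between these pairs. Against WT 1 the log2 ratio was 0.09 in TRKC+/- (interval -0.16 to 0.34) and 0.73 in AdNTF3-Tg (0.50 to 0.96). Against WT 2 it was -0.50 in TRKC+/- (-0.73 to -0.28) and 0.14 in AdNTF3-Tg (-0.06 to 0.34), and WT 1 against WT 2 it was -0.59 (-0.82 to -0.36). Set against the WT library that the table names put beside it, each mutant therefore had a counting interval that included 0. In the edgeR test the fold change was -0.24 ± 0.24 in TRKC+/- (adjusted p = 0.999), 0.41 ± 0.22 in AdNTF3-Tg (adjusted p = 0.817) and 0.65 ± 0.27 between the mutants (adjusted p = 0.940). Without WT 1 the first 2 values were -0.51 and 0.13, and without WT 2 they were 0.09 and 0.74, so the sign in TRKC+/- depended on the WT library.

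*Purb* split the libraries in the same way at a smaller size. Its level was 10.92 FPKM in WT 1 (800 reads), 11.01 in TRKC+/- (826), 13.72 in WT 2 (1023) and 13.79 in AdNTF3-Tg (1023). The log2 ratio was 0.01 in TRKC+/- against WT 1 and 0.01 in AdNTF3-Tg against WT 2, but -0.31 in TRKC+/- against WT 2, 0.33 in AdNTF3-Tg against WT 1 and -0.33 in WT 1 against WT 2. *Pura*, its paralog, did not follow it: *Pura* was 8.54 FPKM in WT 1 (115 reads), 7.79 in TRKC+/- (107), 6.77 in WT 2 (92) and 7.7 in AdNTF3-Tg (104), and the interval of each of its ratios included 0. *Pura* had the fewest reads of the members, counted over 1602 bases, so a difference of this size was not detectable at this depth. That length is 10.7% of the length of its longest GENCODE transcript.

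The double-stranded RNA-binding Staufen proteins are core parts of dendritic and axonal granules. *Stau1* was the steadiest member, at 22.94, 23.34, 23.83 and 23.74 FPKM in WT 1, TRKC+/-, WT 2 and AdNTF3-Tg (590 to 621 reads), a highest level 1.04 times the lowest. *Stau2*, the neuron-enriched paralog, was 20.95, 21.9, 19.56 and 23.52 FPKM. It was highest in AdNTF3-Tg and lowest in WT 2, with a log2 ratio of 0.26 between them (interval 0.09 to 0.45), and 0.17 (-0.01 to 0.34) against WT 1. Its edgeR fold change in AdNTF3-Tg against WT was 0.22 ± 0.12 (adjusted p = 0.817).

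*Hnrnpa2b1*, for the protein that binds the transport element of myelin basic protein mRNA, was the most abundant member per length, at 126.7, 127.37, 139.36 and 129.71 FPKM. *Cpeb1*, for the cytoplasmic polyadenylation element binding protein, came next at 75.23, 75.56, 82.93 and 76.4 FPKM. *Elavl4*, for the neuronal protein HuD that stabilizes *Gap43* mRNA, was 38.08, 42.35, 44.47 and 45.63 FPKM. WT 1 was the lowest library for these 3 genes, and WT 2 was the highest for *Hnrnpa2b1* and *Cpeb1*. *Khsrp*, for a protein that binds AU-rich elements and promotes mRNA decay, was 17.07, 17.03, 15.0 and 16.75 FPKM, with the lowest value in WT 2.

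Their ratios were small next to those of *Uhmk1* and *Fmr1*. Over all 6 pairs of libraries the log2 ratios of the 8 other members lay between -0.33 and 0.33. For *Cpeb1*, with 2010 to 2246 reads a library, TRKC+/- and AdNTF3-Tg were both below WT 2, by -0.13 (interval -0.22 to -0.04) and -0.12 (-0.21 to -0.03), while the intervals against WT 1, where the ratios were 0.01 and 0.02, included 0. For *Elavl4* both mutants were above WT 1, by 0.15 (0.04 to 0.26) in TRKC+/- and 0.26 (0.15 to 0.36) in AdNTF3-Tg, while the intervals against WT 2, where the ratios were -0.07 and 0.04, included 0. In both genes WT 1 and WT 2 themselves differed beyond counting error, by -0.14 for *Cpeb1* and -0.22 for *Elavl4*. Counting intervals narrow as reads grow and hold no spread between pools, so an interval that excludes 0 does not set these genes apart from others.

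The value of *Hnrnpa2b1* depended on its transcript length. The estimated length was 2587.14 bases in WT 1, 2726.22 in TRKC+/-, 2790.64 in WT 2 and 2886.63 in AdNTF3-Tg, a weighted mean of 2 transcripts, and 94% of the 3574 genes with several transcripts varied less in length. Per length AdNTF3-Tg and WT 1 differed by 0.03 on the log2 scale, and in reads by 0.18 (interval 0.11 to 0.26). The reads were 2792, 3026, 3362 and 3223 in the same order of libraries. In edgeR, which uses reads, the fold changes of *Hnrnpa2b1* were -0.05 ± 0.11 in TRKC+/- and 0.07 ± 0.11 in AdNTF3-Tg.

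By mean level the order was *Hnrnpa2b1* (130.8 FPKM), *Cpeb1* (77.5), *Elavl4* (42.6), *Stau1* (23.5), *Uhmk1* (21.5), *Stau2* (21.5), *Khsrp* (16.5), *Purb* (12.4), *Fmr1* (8.82) and *Pura* (7.7). The ranges over the libraries did not overlap between *Hnrnpa2b1*, *Cpeb1* and *Elavl4*, which were also above all the others. Those of *Stau1*, *Uhmk1* and *Stau2* overlapped, as did those of *Uhmk1* and *Khsrp*, of *Purb* and *Fmr1*, and of *Fmr1* and *Pura*. Within each library *Purb* exceeded *Fmr1* with counting intervals apart, and *Stau1* exceeded *Stau2* with counting intervals that overlapped. The order of the other overlapping pairs changed between libraries.

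In the pairs that the table names give, FPKM values were compared without their counting intervals. For 8 of the 10 members the values in WT 2 and AdNTF3-Tg did not overlap those in WT 1 and TRKC+/-. The same held for 39.1% of all genes. The counting intervals were apart between the pairs only for *Fmr1* and *Purb*. *Pura* was 7.79 FPKM in TRKC+/- and 7.7 in AdNTF3-Tg, from 107 and 104 reads. This pairing was examined after the values were seen and has no test. Of the 8, *Stau1*, *Fmr1*, *Hnrnpa2b1*, *Purb*, *Elavl4* and *Cpeb1* were higher in WT 2 and AdNTF3-Tg, and *Pura* and *Khsrp* were lower, while over all genes 2873 were higher and 3103 lower. The log2 difference of the pair means was largest for *Fmr1* at 0.61 and *Purb* at 0.32, was 0.16 for *Elavl4*, and lay between -0.17 and 0.08 for the other members. *Uhmk1* and *Stau2* were the 2 members with overlapping levels, and the pair means of *Uhmk1* were both 21.5 FPKM. The marker sums were also lower in WT 2 and AdNTF3-Tg than in WT 1 and TRKC+/- for 5 of the 7 lists, those of sympathetic neurons (11180 and 10780 FPKM against 11290 and 11460), satellite glia and Schwann cells, skeletal muscle, endothelial cells and blood. Their part in these values was not tested.

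**Figure D4:**
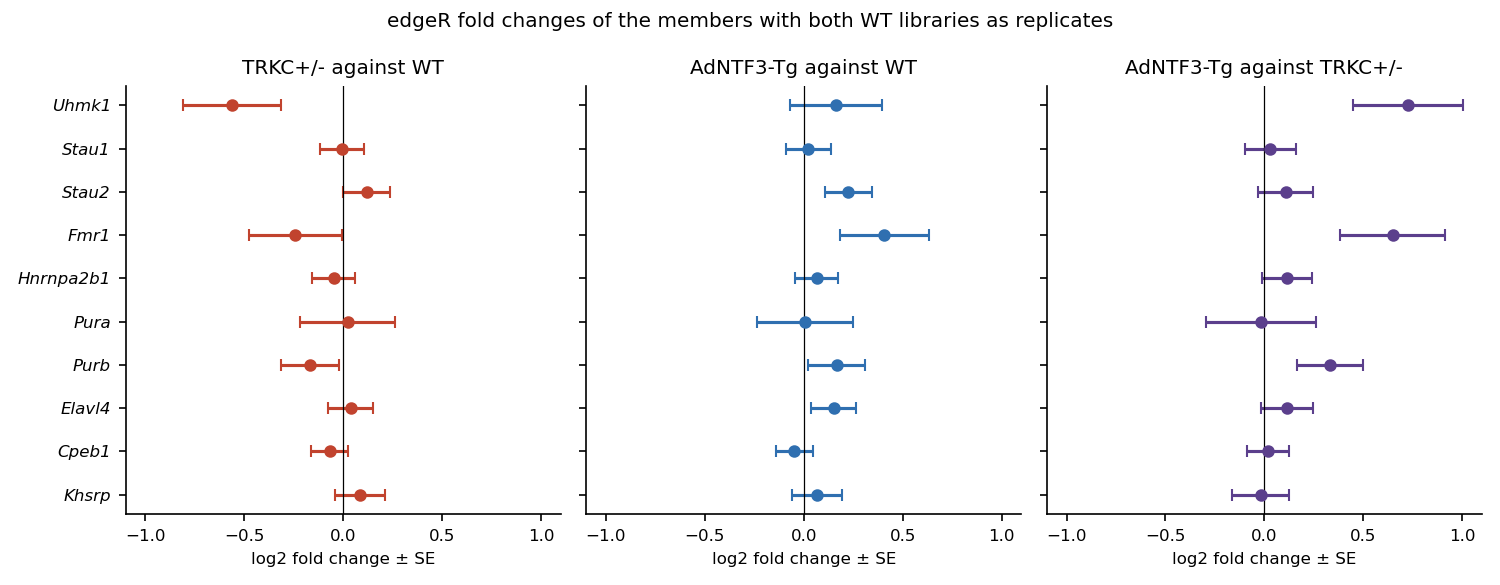
edgeR log2 fold changes (x axis) with standard errors (bars) of the 10 members (rows) in the 3 contrasts, WT having 2 libraries and each mutant 1. *Uhmk1* has the largest size in TRKC+/- against WT, at -0.56, and *Fmr1* in AdNTF3-Tg against WT, at 0.41, and no member passed the adjusted p threshold of 0.05.

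The wider machinery was examined in lists chosen by function. Of 36 other RNA granule and mRNA transport proteins, 35 were listed in all libraries and 34 were tested, and edgeR called 0 in each contrast. Past 0.5 in TRKC+/- were 3 of the 35 against WT 1 (10.7% of all genes) and 0 against WT 2 (12.7%), and in AdNTF3-Tg 1 against WT 1 (13.9%) and 0 against WT 2 (13.3%). Among the most abundant were *Hnrnpk* (152.81 to 158.27 FPKM) and *Ddx1* (76.88 to 81.2), both within 0.07 of each WT library on the log2 scale in either mutant. None passed the cutoff against both WT libraries in the same direction.

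*Cpeb4*, a paralog of *Cpeb1*, was singled out after its values were seen because it was ordered as *Uhmk1* was between the mutants. It was 16.14 FPKM in WT 1 (317 reads), 10.62 in TRKC+/- (213), 12.83 in WT 2 (255) and 17.29 in AdNTF3-Tg (342). TRKC+/- was the lowest library and AdNTF3-Tg the highest, unlike *Cpeb1*, and the edgeR fold changes were -0.45 ± 0.18 in TRKC+/- (adjusted p = 0.999), 0.26 ± 0.17 in AdNTF3-Tg (adjusted p = 0.819) and 0.71 ± 0.20 between the mutants (adjusted p = 0.940). *Smn1*, the spinal muscular atrophy gene, was also chosen after its values were seen: it was 7.67, 10.46, 7.55 and 6.91 FPKM in WT 1, TRKC+/-, WT 2 and AdNTF3-Tg, highest in TRKC+/-, with an edgeR fold change of 0.44 ± 0.23 there (adjusted p = 0.999). The other list genes past the cutoff, *Igf2bp2* and *Igf2bp3*, stood at 0.42 to 0.7 and 0.08 to 0.24 FPKM, from 14 to 24 and 3 to 9 reads.

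The motors that carry granules move them along microtubules or actin. *Kif5a*, a neuronal kinesin heavy chain, was 189.35, 204.48, 190.74 and 209.22 FPKM, *Dync1h1*, the dynein heavy chain, was 112.05, 111.58, 115.67 and 129.8, and *Kif5c* was 73.04, 73.49, 78.93 and 81.44. Of the 7 motors 0 passed the cutoff in any pair (10.7% to 13.9% of all genes). In AdNTF3-Tg all 7 lay above WT 2 (49.8% of all genes did) with a median of 0.11, and 6 of 7 lay above WT 1 (48.0% of all genes) with a median of 0.16, *Kif1c* being the exception at -0.08. All 7 also lay above TRKC+/- (48.3% of all genes) with a median of 0.15. In TRKC+/- 2 of 7 lay above WT 1 (49.5% of all genes) and 2 of 7 above WT 2 (49.9%). The motor with the smallest p in AdNTF3-Tg against WT was *Dync1h1*, at 0.19 ± 0.06 (edgeR adjusted p = 0.817), and edgeR called 0 motors.

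Among 19 genes of translation initiation and its control, 0 passed the cutoff in any pair, where 10.7% to 13.9% of all genes did, and edgeR called 0, against 0 to 1 of all 14156 genes tested. In AdNTF3-Tg 16 of the 19 lay above WT 1 (48.0% of all genes) with a median of 0.09, and 12 of the 19 above WT 2 (49.8%) with a median of 0.01. In TRKC+/- 11 of the 19 lay above WT 1 and 8 of the 19 above WT 2. *Eef2*, the elongation factor that moves the ribosome, was 479.71 to 497.38 FPKM, *Eif4g2* 107.2 to 120.31 and *Eif4g1* 88.34 to 94.44. Among 26 mRNAs known to be carried into axons, 0 passed the cutoff in a mutant against either WT library (10.7% to 13.9% of all genes), and *Arc* alone did so between the WT libraries, at 0.57, with 1.44 to 2.18 FPKM. *Tubb3* (1170.85 to 1280.91 FPKM), *Stmn2* (905.19 to 949.45) and *Cfl1* (739.86 to 789.69) were the most abundant, each within 0.11 of both WT libraries in either mutant, and edgeR called 0 of the 25 tested.

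Of 10 partners and substrates of UHMK1, 1 passed the cutoff in TRKC+/- against both WT libraries, as did 4.27% of all genes. It was *Pimreg*, for a mitotic protein that binds the kinase. It was 0.98 FPKM in WT 1, 1.6 in TRKC+/-, 0.97 in WT 2 and 1.38 in AdNTF3-Tg, from 12, 20, 12 and 17 reads. Both mutants were above both WT libraries, with log2 ratios of 0.65 and 0.67 in TRKC+/- and 0.45 and 0.47 in AdNTF3-Tg, and edgeR gave 0.71 ± 0.53 (adjusted p = 0.999) and 0.50 ± 0.54 (adjusted p = 0.883). The substrate *Stmn1*, for the microtubule-destabilizing protein stathmin, was 350.45, 335.18, 329.39 and 323.64 FPKM, *Pam*, whose protein binds the kinase, was 348.41 to 359.26, and *Eef1a1* was 1282.0 to 1379.62. Of the other genes with a U2AF homology motif, 9 of 10 had values in every library, 0 of them differed past the cutoff in any pair (10.7% to 13.9% of all genes) and edgeR called 0. *Puf60* (76.46 to 82.0 FPKM), *U2af1* (62.98 to 73.25) and *U2af2* (55.02 to 61.83), all splicing factors, were the most abundant. *Uhmk1* was thus at a lower level than these 3 and differed more between libraries than any of the 9.

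**Figure D5:**
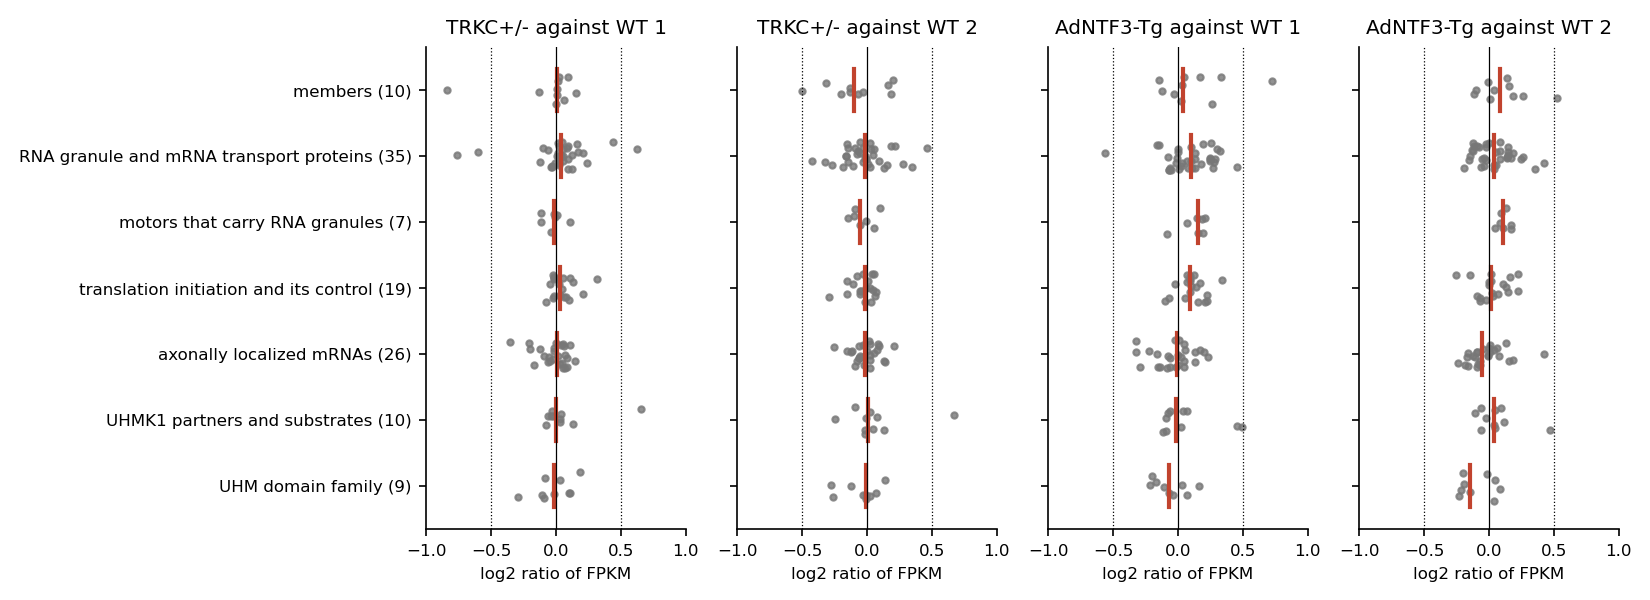
log2 ratios of FPKM (x axis) of each gene (points, with vertical scatter for display) in 7 lists (rows, number of genes in parentheses) for each mutant library against each WT library; red bars are list medians and dotted lines the cutoff of 0.5. Most genes lie between the dotted lines, and the motors in AdNTF3-Tg have medians of 0.16 and 0.11.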

How the data were processed

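RNA from 4 pools of T1–T4 ganglia was sequenced as oligo(dT)-enriched libraries (single-end reads of 50 bases, per the study's methods). The authors made, with RSEM, and deposited the expected counts per Entrez gene of each library, beside FPKM and a mean transcript length. The submitters' processing notes name RSEM and mm10, whereas the study's methods name SOAPnuke, HISAT2, mm9 and RPKM; the tables hold no coordinates, and whether strand was used in counting is not given in the sources used here. Positions were taken from GENCODE for NCBIM37 (mm9) and from RefSeq for GRCm38.p6, and RefSeq paired 17619 of 17667 identifiers with symbols.

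From the deposited FPKM, log2 ratios were computed with a pseudocount of 0.1 in 15275 genes listed in all libraries, with a cutoff of 0.5 as in the study's methods. Exact 95% intervals (Poisson for levels, Clopper-Pearson for ratios of rounded counts) cover counting error only, since the reads carry no molecular identifiers. Rounded expected counts were tested with edgeR 4.0.16 (TMM, filterByExpr, glmQLFit, glmQLFTest, adjusted p of 0.05); each standard error is the fold change divided by the root of F. The fit had 1 residual degree of freedom and a common biological coefficient of variation of 0.0816. DESeq2 1.42.0, other scalings, filters, pseudocounts and cutoffs were alternatives. Named genes were the 10 members, the 3 most abundant genes of each list (1 of them is not reported here) and any past the cutoff against both WT libraries (mean level of 1 FPKM or more), the 5 nearest profiles, 2 neighbours on each side, *Ntrk3* and *Ntf3*. Members and lists were chosen with earlier results of these data known.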

Additional observations from a re-analysis of the deposited data

How the results depend on the processing

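Of the 60 log2 ratios of members (10 genes, 6 pairs of libraries), all 60 moved by less than their counting interval with pseudocounts of 1 and 0.01, with a minimum mean of 1 FPKM, with missing genes as 0 FPKM, after centring on the median of all genes and after subtracting the median of the 500 genes nearest in length. With TMM-scaled CPM 56 of 60 did, and the 4 others were of *Hnrnpa2b1*, whose transcript length differed between libraries; none past the cutoff changed sign. The count of members past the cutoff in TRKC+/- against WT 2 went from 0 to 1 (*Fmr1*, just short of it in the report) with a pseudocount of 0.01, with TMM-scaled CPM and with the length correction. With a cutoff of 1 in place of 0.5 it was 0 in every pair. The counts past the cutoff against both WT libraries were 0 for each mutant with FPKM and with TMM-scaled CPM, and leaving out 1 WT library in turn gave 0 to 1 for TRKC+/- and 1 in both cases for AdNTF3-Tg, and TMM-scaled CPM left the count of 8 members split by the pairs of libraries at 8; these alternatives were chosen after seeing the data.

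In TRKC+/- against WT, 1 gene was called by edgeR, 2 with median-ratio size factors and 2 by DESeq2 (*Ucp1* and *Npcd*), and 0 without a filter on low counts. In AdNTF3-Tg against TRKC+/- 1 gene was called, and 0 without the filter; the cause was not tested. Members called were 0 in each contrast under each of these, and none of the 30 fold changes of members changed sign under these 3 settings, whereas leaving out a WT library did change signs, as given for *Uhmk1* and *Fmr1*. Leaving out WT 1 moved 9 of the 30 by more than 1 SE and leaving out WT 2 moved 10, with no test possible. No paired analysis was possible because the labels give the mutant libraries no replicate number that matches a WT library, and a block would leave no residual degrees of freedom. At 418 reads in all, *Pura* was the least precise member.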
